A study of Mus musculus with 6 samples.

Results

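RNA of the EGF receptor family was examined in GFP-positive keratinocytes sorted from mouse epidermis, as 10 genes taken by symbol from a count table of 22295 genes. These were the receptor genes Egfr, Erbb2 and Erbb3, the ligand genes Areg, Ereg, Hbegf, Tgfa, Btc and Epgn, and the feedback inhibitor gene Errfi1, and all 10 were found and tested. There were 3 libraries from K19 Itga3 WT mice, labelled 19(Cre-ERT); mTmG (K19-CreER in the methods), and 3 from K19 Itga3 KO mice, which carry Itga3 fl/fl in addition, all bred on FVB. The K19 promoter drives the tamoxifen-dependent Cre in hair bulge (HB) cells, the mTmG reporter turns recombined cells and their progeny green, and the floxed alleles lose integrin α3 in the same cells. Per the labels, mice of both groups received tamoxifen at 10 mg/ml over 4 days from 6 weeks of age, 30 μg DMBA at 7 weeks, and then 12.34 μg TPA repeatedly for 2 weeks, both in 200 μl acetone, so no untreated skin was measured. The study's methods give another tamoxifen concentration and schedule than the labels. The study gives the low efficiency of Cre recombination in this line as a limit of the model, and the sort kept only cells in which the reporter had recombined. The study describes 3 mice of each genotype, and the libraries are called WT a to c and KO a to c in the order of the count table.

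Ligands of this family are made as membrane-anchored precursors that metalloproteases shed, and they bind EGFR, or in some cases ERBB4, on the same or neighboring cells. ERBB2 has no known ligand and ERBB3 has little kinase activity, so that both act mainly as partners in dimers. In the epidermis, EGFR signaling drives keratinocyte proliferation and holds back differentiation, and phorbol esters such as TPA raise the shedding and transcription of several ligands. Errfi1 encodes MIG6, which binds the active EGFR kinase and blocks it, and which is itself induced by EGFR signaling.

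Libraries held 21167965 to 22851841 counts in WT and 20578309 to 23670507 in KO. The targeted gene Itga3 lay between 252.5 and 371.3 CPM (counts relative to the library total, scaled by TMM factors) in WT and between 123.7 and 133.8 CPM in KO (adjusted p = 0.00283 in edgeR, from 6.06e-12 to 0.130 over the alternatives). Keratinocyte markers (5 genes) summed to 22020 to 33400 CPM in WT and 27910 to 31050 CPM in KO, and HB markers (6 genes) to 12240 to 18330 and 11490 to 14910 CPM. Of the HB markers 5 of 6 had a lower estimate in KO, and Cd34 passed (0.605 of the WT level, adjusted p = 0.0462 in edgeR). Calls of single marker genes, here and below, were not followed over the alternatives. The 8 immune cell markers summed to 6.23 to 11.1 CPM in WT and 6.42 to 10.2 CPM in KO, with Lyz2 and Emr1 at 3 counts or fewer in every library. The 6 fibroblast markers summed to 116 to 178 CPM in WT and 48.1 to 80.3 CPM in KO. The sum was mostly Col1a1 and Col1a2, and 3 of the 6, all scarcer than these (Dcn, Col3a1 and Lum), had a higher estimate in KO. Markers of inner root sheath and hair shaft (6 of 7 detected) summed to 11.01 to 15.9 CPM in WT and 16.9 to 35.6 CPM in KO. Krt25, Krt28 and Krt35 passed as higher in KO (adjusted p = 0.0256, 0.0461 and 0.0462 in edgeR). The 4 endothelial markers summed to 5.56 to 8.67 CPM in WT and 3.70 to 4.97 CPM in KO. For these last 3 lists the sums did not overlap between genotypes, and the part of any of these cells in the values below was not tested. Of the 9640 genes with a mean of at least 10 CPM, 33.6% were lowest in WT b, a share not computed for the other libraries. WT a had the lowest sum of the 6 proliferation markers, 375 CPM. The sum was 766 CPM in WT b, 925.5 in WT c and 577.5 to 825.7 in KO. Mki67, Top2a, Ccnb1 and Cdk1 were lowest in WT a, whereas Pcna and Mcm2 were lowest in WT b. Any part of proliferation in the values below was not tested.

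The ligand genes Epgn, Ereg, Areg and Btc lie within 375.5 kb of chromosome 5 (91027464 to 91402994, GRCm38). Hbegf, Epgn, Areg and Errfi1 were each lowest in WT b and highest in KO a, as described below. For 3 of the 4 (Epgn, Areg and Errfi1), the 250 bases before the start site in RefSeq (GRCm38.p6) were searched. Hbegf was not searched, because member windows on its chromosome were left out, so the search says nothing about its promoter. The windows of Areg and Errfi1 are shown because both held the CRE motif. Capitals mark matches, on either strand, to the CRE motif TGACGTCA. The AP-1 motif TGANTCA and the TEAD motif GGAATG were searched in the same way and had no match in these 3 windows. The windows are chr5:91139349-91139598 for Areg, chr4:150854820-150855069 for Errfi1 and chr5:91027267-91027516 for Epgn, all on the plus strand. That of Errfi1 lies inside the gene as placed in the count table (150853919 to 150868892). That of Epgn runs into the first exon of the gene as placed in the count table and is not shown.
Areg: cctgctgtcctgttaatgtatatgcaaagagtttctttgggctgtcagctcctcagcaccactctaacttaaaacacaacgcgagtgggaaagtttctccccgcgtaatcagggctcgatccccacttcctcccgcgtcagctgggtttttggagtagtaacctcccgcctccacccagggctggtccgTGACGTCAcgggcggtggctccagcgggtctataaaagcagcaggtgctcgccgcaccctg
Errfi1: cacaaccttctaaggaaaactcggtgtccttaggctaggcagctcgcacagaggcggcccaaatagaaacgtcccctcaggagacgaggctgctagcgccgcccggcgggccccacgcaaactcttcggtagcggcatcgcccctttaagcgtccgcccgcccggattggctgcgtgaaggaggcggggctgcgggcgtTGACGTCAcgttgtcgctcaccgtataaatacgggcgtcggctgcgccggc
The CRE motif began 61 bases before the start site of Areg and 51 bases before that of Errfi1, and it was found in 1.55% of 32851 promoter windows of this length. A second window of Errfi1, with its start site farther upstream, held 1 TEAD match and no CRE match. A stretch of bases just after that start site was found in no Errfi1 transcript of GENCODE M21. AP-1 was found in 6.75% and TEAD in 12.6% of all windows. The windows of the members Btc, Egfr, Erbb2 and Tgfa held no CRE or AP-1 match, and that of Erbb2 held 1 TEAD match. Hbegf, Epgn, Areg and Errfi1 were picked by their values in these data, and any role of a motif in these values was not tested.

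Erbb2 and Egfr had the highest levels, per length, of the 10 genes. Divided by exon length in kilobases, the mean level over the 6 libraries was 33.9 CPM per kilobase for Erbb2, 32.9 for Egfr and 27.0 for Erbb3, followed by Errfi1 at 26.5. Among ligands, Epgn stood at 12.8 CPM per kilobase, Hbegf at 11.9, Tgfa at 5.75, Areg at 3.42, Ereg at 1.52 and Btc at 0.281. This order held in 6 of 6 libraries for Errfi1 above Epgn, Tgfa above Areg, Areg above Ereg, and Ereg above Btc. Erbb2 and Egfr changed places in 3 of 6 libraries, as did Erbb3 and Errfi1, and Epgn and Hbegf, so these neighbors did not differ beyond their spread. With the length of the longest transcript in place of all exons, Hbegf stood at 19.9 CPM per kilobase and above Epgn at 13.1, Egfr came first at 36.5, and Errfi1, at 31.2, stood above Erbb3, at 27.0. Among all tested genes, the levels ranged from percentile 93.4 for Erbb2 to percentile 37.3 for Btc.

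None of the 10 genes differed between KO and WT keratinocytes at an adjusted p below 0.05 in edgeR's quasi-likelihood test, against 0.673% of the 21681 genes tested (0.461% higher and 0.212% lower in KO). The count was 0 of 10 with limma-voom and with DESeq2 as well, and 0 of 10 at an unadjusted p below 0.05 in each of the 3 tools, against 11.5% of all genes in edgeR. For none of the 10 were the groups free of overlap, as they were for 16.3% of all genes (8.03% with KO above WT and 8.23% with KO below). The estimate was higher in KO for 8 of 10 genes, against 50% of all genes, with a median log2 fold change of 0.27 against 0.00. The smallest adjusted p was 0.506 (Hbegf) and the largest 0.952 (Egfr).

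**Figure D1:**
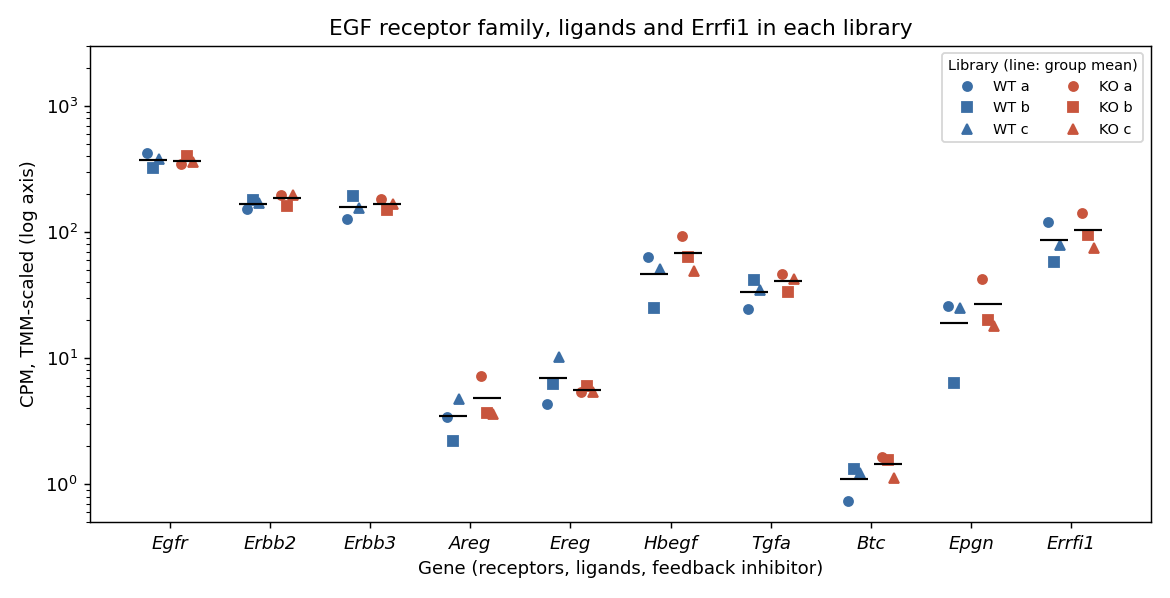
CPM of the 10 genes on a log axis, with WT libraries in blue, KO libraries in red, 1 symbol for each library and a line at each group mean. The groups overlap for all 10 genes, and the spread within a genotype is widest for Epgn, from 6.37 to 26.1 CPM in WT.

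Egfr, the receptor for all 6 ligands studied here, lies on chromosome 11 (16752203 to 16918158). Its level in WT a, b and c was 427, 321 and 380 CPM. The KO libraries, in the same order, stood at 349, 402 and 357 CPM, and this order is kept for the genes that follow. All 3 KO values fell inside the WT range. The WT mean was 376 ± 53.5 CPM and the KO mean 369 ± 28.8 CPM (each SD, n = 3), a log2 fold change of −0.03 (standard error 0.12) with a 95% confidence interval of −0.28 to 0.23. A rise in KO beyond 1.17-fold or a fall below 0.824 of the WT level lay outside that interval.

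Erbb2, the ligandless partner receptor, lies on the same chromosome (98412470 to 98437716), 3.34 Mb from Itga3, where an effect of the deletion and of any sequence linked to the floxed allele cannot be told apart. It stood at 152, 179 and 170 CPM in WT and at 197, 163 and 199 CPM in KO, so that 2 of the 3 KO libraries exceeded every WT library. The log2 fold change was 0.16 (standard error 0.11, interval −0.08 to 0.39, adjusted p = 0.638 in edgeR). Erbb3 (chromosome 10, 128567523 to 128589652), the partner receptor with a weak kinase, stood at 127, 192 and 155 CPM in WT and at 184, 150 and 168 CPM in KO, a log2 fold change of 0.08 (standard error 0.14, interval −0.22 to 0.38). Its KO values again lay within the WT range. The fourth receptor of the family, Erbb4, had 0 to 6 counts per library, at or under 3 counts in 4 of the 6.

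Hbegf (chromosome 18, 36504929 to 36515805), which encodes heparin-binding EGF-like growth factor, had the largest estimate of the ligands. It stood at 63.1, 25.0 and 51.4 CPM in WT and at 93.4, 63.7 and 48.9 CPM in KO. KO a and KO b were above all WT libraries, whereas KO c was below WT a and WT c. The log2 fold change was 0.56 (standard error 0.29) with an interval of −0.07 to 1.195, which held both no change and a 2.29-fold rise. Without WT b, the lowest library, it was 0.26, and without KO a, the highest, 0.28, whereas without WT a it was 0.86.

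Epgn (chromosome 5, 91027464 to 91035215), which encodes epigen, varied most. It stood at 26.1, 6.37 and 25.1 CPM in WT and at 42.6, 20.1 and 18.0 CPM in KO. The WT libraries thus differed by 4.09 times among themselves, and the difference between the genotypes was 0.49 on the log2 scale (standard error 0.43, interval −0.46 to 1.44, adjusted p = 0.681 in edgeR). It was 0.08 without WT b and −0.01 without KO a.

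Areg (chromosome 5, 91139615 to 91148432), which encodes amphiregulin, rested on 48 to 169 counts per library. It stood at 3.44, 2.20 and 4.76 CPM in WT and at 7.18, 3.71 and 3.63 CPM in KO. Only KO a lay above the WT range, and the log2 fold change was 0.48 (standard error 0.33, interval −0.23 to 1.19), or 0.08 without KO a. Its neighbor Ereg (chromosome 5, 91074617 to 91093649), which encodes epiregulin, was the only ligand with a lower estimate in KO. It stood at 4.31, 6.23 and 10.2 CPM in WT and at 5.36, 6.05 and 5.42 CPM in KO, and the log2 fold change of −0.31 (standard error 0.27, interval −0.89 to 0.28) became 0.09 without WT c, the highest library. All KO values of Ereg lay inside the WT range.

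Tgfa (chromosome 6, 86195251 to 86275449), which encodes transforming growth factor α, a ligand made by keratinocytes themselves, stood at 24.7, 41.8 and 34.9 CPM in WT and at 46.7, 33.4 and 42.5 CPM in KO. KO a and KO c exceeded every WT library, and the log2 fold change was 0.27 (standard error 0.18, interval −0.12 to 0.67). It was 0.10 without WT a and 0.46 without WT b. Btc (chromosome 5, 91357261 to 91402994), which encodes betacellulin, was the scarcest, with 16 to 39 counts per library. Its level was 0.734 to 1.33 CPM in WT and 1.11 to 1.66 CPM in KO, a log2 fold change of 0.39 (standard error 0.33, interval −0.32 to 1.102), from 0.18 without WT a to 0.55 without WT b.

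Errfi1 (chromosome 4, 150853919 to 150868892), the feedback inhibitor, stood at 120, 57.9 and 79.6 CPM in WT and at 142, 95.3 and 74.6 CPM in KO. KO a was highest and WT b lowest, and the remaining 4 libraries were interleaved. The log2 fold change was 0.27 (standard error 0.25, interval −0.28 to 0.83), and it was 0.06 without WT b and −0.02 without KO a.

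**Figure D2:**
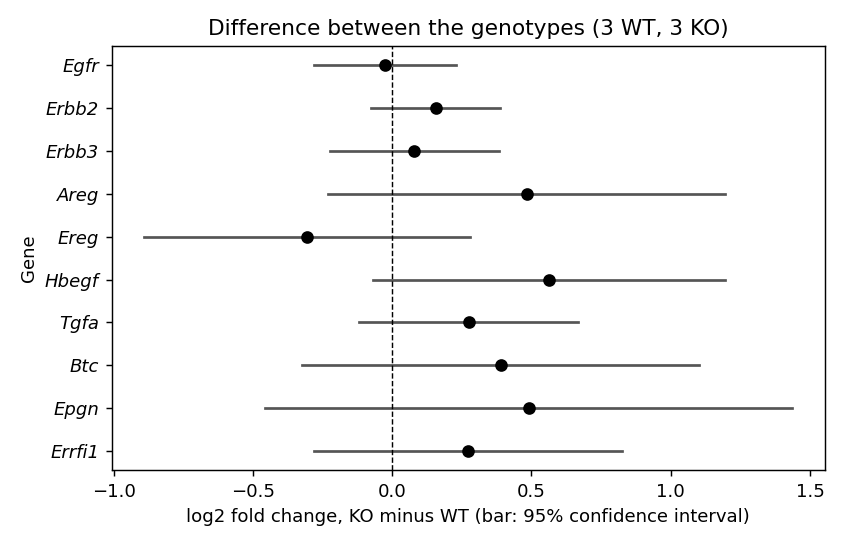
Log2 fold change, KO minus WT, of the 10 genes in edgeR, with bars for the 95% confidence interval (3 WT and 3 KO libraries). Every interval includes 0, with those of the receptors narrower than those of Hbegf, Epgn and Areg.

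Relative to other genes of like abundance, several members varied much between libraries of one genotype. The SD of log2 CPM within genotypes was 0.94 for Epgn, 0.60 for Hbegf and 0.50 for Errfi1, at percentiles 99.2, 98.7 and 98.8 of genes whose mean level was within a factor of 2. For Tgfa it was 0.32 (percentile 93.2), and for Erbb3 0.24 (percentile 89.7). Egfr, at 0.17, and Erbb2, at 0.14, lay at percentiles 73.8 and 68.1, and Btc at percentile 48.7.

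Hbegf, Epgn, Areg and Errfi1 were all lowest in WT b and highest in KO a among the 6 libraries. Of the 10 members, 5 were lowest in WT b and 6 were highest in KO a. For the 9640 genes with a mean of at least 10 CPM, these shares were 33.6% and 25.8%. Across the 6 libraries, log2 CPM of Hbegf and Errfi1 had a Pearson r of 0.93 and a Spearman rho of 0.94 (exact permutation p = 0.00556 and 0.0167). After adjustment over the 45 pairs of members the p was 0.0834 and 0.188 (exact permutation tests), which does not pass. With the group means removed r was 0.95, and without WT b and KO a it was 0.88 over 4 libraries. For Hbegf and Epgn r was 0.96 (rho 0.83, exact permutation p = 0.00833 and 0.0583, adjusted 0.0875 and 0.375), but without the same libraries it was 0.33, so that this relation rested on WT b and KO a. Areg, too, was tied to the others by those libraries, since without them its r fell from 0.87 to −0.48 with Hbegf, from 0.75 to −0.54 with Errfi1 and from 0.92 to 0.32 with Epgn.

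Egfr and Erbb3 varied in opposite order. The libraries ranked by Egfr, from WT a down to WT b, were in reverse order for Erbb3, with r = −0.97 and rho = −1 over 6 libraries (exact permutation p = 0.00417 and 0.00278, adjusted over 45 pairs 0.0834 and 0.125). With the group means removed r was −0.99, and without WT a and WT b, the outermost libraries, it was −0.95. Tgfa followed Erbb3 (r = 0.94, rho = 0.83, exact permutation p = 0.00972 and 0.0583, adjusted 0.0875 and 0.375), and r was 0.98 without WT a and WT b. It followed Erbb2 as closely (r = 0.93, rho = 0.94, exact permutation p = 0.00278 and 0.0167, adjusted 0.0834 and 0.188). Without WT a and KO c, r of Tgfa and Erbb2 was 0.97. None of the 45 pairs passed the adjustment, and the pairs described were chosen after the values were seen. The range of Egfr behind its relation with Erbb3 was 1.33-fold in WT and 1.15-fold in KO.

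**Figure D3:**
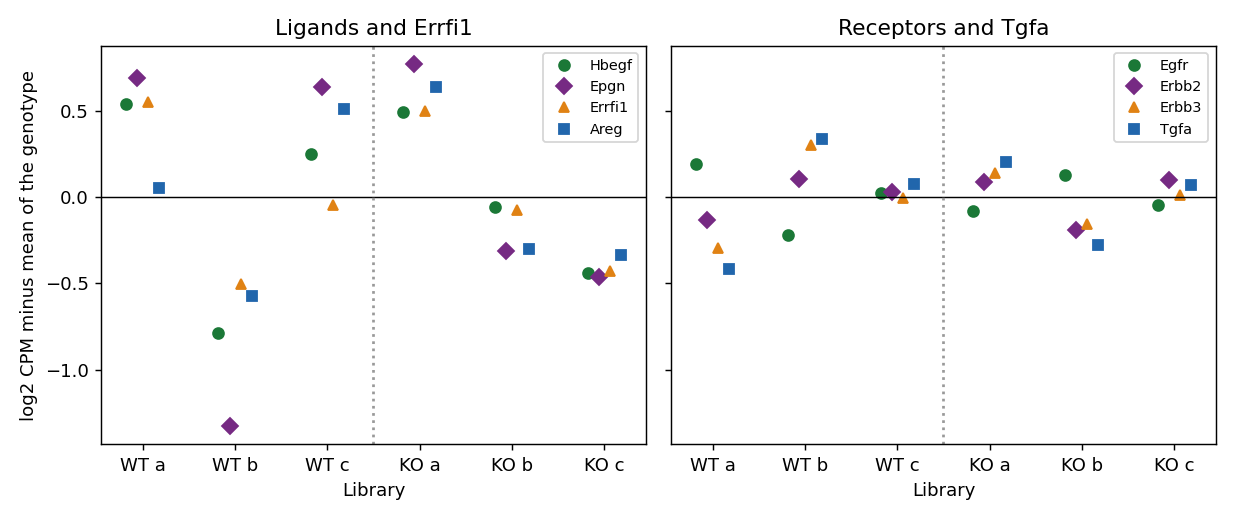
Log2 CPM of each gene minus the mean of its genotype, by library, for Hbegf, Epgn, Errfi1 and Areg on the left and Egfr, Erbb2, Erbb3 and Tgfa on the right. On the left, WT b is the lowest of WT for each gene (Epgn at −1.33) and KO a the highest of KO. On the right, Egfr lies on the other side of 0 from Erbb3 and Tgfa in WT a, WT b, KO a, KO b and KO c.

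Over all genes with a mean of at least 10 CPM, the gene most alike by Pearson correlation of log2 CPM over the 6 libraries was Ocrl for Egfr (r = 0.997), Lhfpl1 for Erbb2 (0.992) and mt-Co1 for Erbb3 (0.983). It was Ndufv2 for Areg (0.998), Oraov1 for Ereg (0.9751), Zfp148 for Hbegf (0.997), Epcam for Tgfa (0.990), Elovl7 for Btc (0.981), Mdh2 for Epgn (0.995) and Rsl24d1 for Errfi1 (0.998). With 6 libraries, high values are common. An r above 0.95 was reached by 6 genes with Btc and by 210 genes with Hbegf, of 9640 and 9639 candidates.

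The make-up of the ligands stood apart in WT b. Of the summed CPM per kilobase of the 6 ligands, the WT share of Hbegf was 31.2% ± 5.02 and its KO share 34.8% ± 3.21 (each SD, n = 3). Epgn held 40.8%, 18.8% and 38% in WT, and 40.9%, 32.4% and 32% in KO. Tgfa held 10.8%, 34.3% and 14.7% in WT and 12.5%, 15% and 21% in KO. In WT b, Tgfa therefore had the largest share, and in the other 5 libraries Hbegf or Epgn did. The summed ligand level was 35.3, 18.8 and 36.6 CPM per kilobase in WT and 57.7, 34.3 and 31.2 in KO, whereas the sum of the 3 receptors lay between 88.1 and 99.2 in all 6. With the longest transcript as length, the mean share of Hbegf was 42.1% over the 6 libraries.

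**Figure D4:**
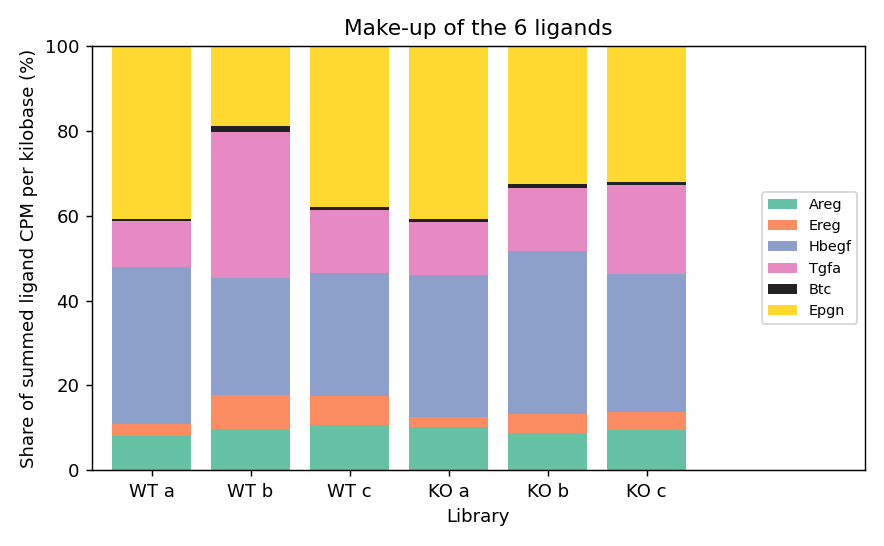
Share of each of the 6 ligands in their summed CPM per kilobase, as stacked bars from 0 to 100% for each library. WT b has the largest share of Tgfa (34.3%) and the smallest of Epgn (18.8%), and in the other 5 libraries Tgfa ranges from 10.8% to 21%.

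Of 77 further genes of the pathway, 76 were in the table and 75 of these did not pass in edgeR. The exception was Socs3, which encodes a suppressor of cytokine signaling best known for restraining JAK/STAT3 signals. It stood at 254, 208 and 245 CPM in WT and at 323, 332 and 379 CPM in KO, and each KO library was above each WT library. Socs3 lies on chromosome 11 (117966079 to 117970047), as does Itga3 (95044474 to 95076801), and is farther from Itga3 than Erbb2 is. The change was 0.55 on the log2 scale (standard error 0.11), with an adjusted p of 0.0453 in edgeR, and the call was lost with limma-voom (adjusted p = 0.111), with either stricter gene filter (0.130 for both) and without any 1 library except WT a (0.0639 to 0.368). The log2 fold change itself stayed between 0.47 and 0.61 in all 12 alternatives. Estimates were higher in KO for 61 of the 76 genes (80.3%, median 0.09), compared with 54% of all genes with a mean of at least 10 CPM (median 0.02). Of the 76, 17 had an unadjusted p below 0.05 in edgeR. The same held for 1610 of the 9640 genes with a mean of at least 10 CPM and for 11.5% of all genes tested.

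By role, the most abundant transcripts per length were Nrg2 among the other receptors and ligands, at 0.743 CPM per kilobase of all exons (Nrg1 by longest transcript, at 0.905 against 0.763), and Cd9, a tetraspanin that associates with the HB-EGF precursor, among genes of ligand shedding and transport, at 381. They were Mapk3, which encodes ERK1, in signal transduction, at 93.1, Socs3 in receptor restraint and turnover, at 100.3, and Fos among response genes, at 1365 CPM per kilobase. In signal transduction, 24 of 28 genes had a higher estimate in KO, with a median log2 fold change of 0.07, and 0 passed (2 at an unadjusted p below 0.05). Among other receptors and ligands 2 of 5 were higher (median −0.01), and 0 passed, with 1 at an unadjusted p below 0.05. In ligand shedding and transport, 9 of 11 were higher (median 0.14), and 0 passed, with 3 at an unadjusted p below 0.05. In receptor restraint and turnover, 9 of 14 were higher (median 0.05) and 1, Socs3, passed, with 4, Socs3 among them, at an unadjusted p below 0.05.

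Among 18 genes known to respond to EGFR and ERK signaling, 17 had a higher estimate in KO, with a median log2 fold change of 0.43, and 0 passed in edgeR. Of genes with a mean of at least 10 CPM, 54% had a higher estimate. An unadjusted p below 0.05 in edgeR was reached by 7 of the 18, against 1610 of the 9640 genes at that mean level and 11.5% of all genes tested. Of the 18, Dusp4, Plaur and Spry4 had a mean under 10 CPM, and Dusp4 and Spry4 are among the 7. The median log2 fold change of the 18 was 0.18 without WT b, with 16 of 18 higher. In WT b, 15 of the 18 were at their lowest among the 6 libraries (83.3%, against 33.6% of genes with a mean of at least 10 CPM). Myc, Ier3, Dusp5 and Fosl1, named after their values were seen, followed Errfi1 most closely. Fosl1, which encodes an AP-1 subunit, stood at 66.1, 22.2 and 58.1 CPM in WT and at 99.8, 61.1 and 60.3 CPM in KO, and had r = 0.87 and rho = 0.94 with Errfi1 over 6 libraries (exact permutation p = 0.00278 and 0.0167, adjusted over 18 genes 0.05 and 0.1). Without WT b and KO a, r was 0.90. Myc, which encodes a growth-promoting transcription factor, stood at 237, 132 and 170.0 CPM in WT and at 213, 185 and 172 CPM in KO (r = 0.93 and rho = 0.89 with Errfi1, exact permutation p = 0.0125 and 0.0333, adjusted 0.0562 and 0.15, and r = 0.96 without WT b and KO a). Without the same libraries r with Errfi1 was 0.69 for Ier3 and 0.68 for Dusp5, and it turned from 0.84 to −0.34 for Dusp6 and from 0.72 to −0.67 for Ptgs2. None of the 18 relations had an adjusted p below 0.05.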

How the data were processed

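The deposited values are raw counts per gene and library. The authors sorted GFP-positive keratinocytes, made strand-specific poly(A) libraries, aligned single reads with TopHat 2.1.0 (Bowtie 1.1) to the mouse genome (GRCm38), and counted uniquely mapped reads on the matching strand with a script of their own. Reads with several matches were thus lost.

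Genes with at least 1 count in any library (21681 of 22295) were tested for KO against WT with edgeR 4.0.16 (R 4.3.3, TMM factors, glmQLFit and glmQLFTest) and Benjamini-Hochberg adjustment over all of them. Confidence intervals (95%) and standard errors come from this fit. Correlations used log2 CPM with a prior count of 2. Exact permutation tests of 1 gene between 3 and 3 libraries cannot give a p below 0.1 and gave 0.3 or more for each member. Exon lengths came from GENCODE M21 (GRCm38), which held 98.9% of the gene identifiers, and coordinates from the count table. Promoter windows came from RefSeq and were kept for 7 of the 10 genes. Member windows on chromosome 18, which holds Hbegf, were left out. The code was tested on simulated counts.

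Members and lists were chosen with earlier results of these data known. Genes named were the 10 members, pathway genes that passed, the most abundant per length in each pathway list, the gene most correlated with each member (mean of at least 10 CPM), Itga3, and markers beside a result. Erbb4, Nrg1 and the response genes set beside Errfi1 were named after their values were seen. Alternatives were limma-voom (limma 3.58.1), DESeq2 1.42.0, library size only, upper-quartile factors, filterByExpr, at least 10 counts in every library, and each library left out. Depth was 20578309 to 23670507 counts per library, and 3 counts (0.128 to 0.145 CPM) were taken as the floor, which covers counting error only.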

Additional observations from a re-analysis of the deposited data

How the results depend on the processing

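In all 12 alternatives 0 of the 10 members passed. Of the 120 log2 fold changes of members under these alternatives, 114 kept their direction, and the 6 that turned all came from leaving out a library. With a library left out, Egfr ranged from −0.1285 (without WT b) to 0.0826 (without WT a), and was also above 0 without KO a (0.01). Erbb3 ranged from −0.0502 (without WT a) to 0.2428, Ereg from −0.5468 to 0.0887 (without WT c), Epgn from −0.0092 (without KO a) to 0.7873 and Errfi1 from −0.0165 (without KO a) to 0.6051. With libraries left out, up to 3 members had an unadjusted p below 0.05 (without WT a), and the smallest adjusted p of a member was 0.150 (Hbegf, without WT a). The number of pathway genes called, 1 in edgeR, was 4 with DESeq2, 0 with limma-voom or either stricter gene filter, and from 0 to 5 with a library left out. The number of all genes called, 146 in edgeR, was 546 with DESeq2, 24 with limma-voom, 15 with filterByExpr, 12 where each library needed 10 counts, and from 5 (without WT c) to 521 (without WT a) with a library left out, and the cause was not tested. The median log2 fold change of the 6 ligands, 0.44, was 0.25 without WT b and 0.12 without KO a, omissions added after the data were seen. With 3 libraries per genotype, the intervals of Areg, Hbegf, Epgn and Btc reached past a doubling. No paired analysis was possible because the count columns carry mouse identifiers that do not match the replicate numbers of the labels, and the genotypes came from different mice.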
